A study of Mus musculus with 20 samples.

Results

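The genes described here are 8 markers of the nervous system of the embryonic heart. Th, Dbh, Prph, Tubb3 and Stmn2 mark autonomic neurons, and Sox10, Foxd3 and Erbb3 mark the neural crest glia and Schwann cell precursors that travel with the nerves. They were chosen for these roles and not for their values, and are 8 of the 48795 genes in a table of log2-transformed normalized counts from mRNA sequencing of 20 whole mouse hearts at E13.5, in mid-gestation. Of these hearts 10 were wildtype (WT), 5 were Dp1Tyb and 5 were labelled Dp1TybDyrk1a+/+/-. Dp1Tyb embryos model Down syndrome. They carry a duplication of mouse chromosome 16 from Lipi to Zbtb21 and so an extra copy of the genes in it, among them Dyrk1a, which encodes a protein kinase. Dp1TybDyrk1a+/+/- embryos carry the same duplication, but one of their Dyrk1a alleles is the null allele Dyrk1a tm1Mla, so that the number of working copies is that of WT. WT hearts carry neither the duplication nor the null allele. Per the study's methods the Dp1TybDyrk1a+/+/- mice were kept as their own strain and WT controls were littermates, but the labels do not say which WT hearts came from which strain. All 10 WT hearts were therefore pooled, and a difference between the strains cannot be told apart from one between the mutant genotypes. No member lies on chromosome 16. The comparisons ask whether the duplication altered the RNA of heart neurons and glia, and whether a difference needed the extra working copy of Dyrk1a.

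The autonomic nerves of the heart come from the neural crest. Crest cells that reach the heart form parasympathetic ganglia on the heart itself, and sympathetic neurons, whose cell bodies lie outside the heart in the chain ganglia, send axons into it. Sympathetic neurons make noradrenaline, which speeds the heart. Schwann cell precursors follow the growing axons, depend on neuregulin signals from them, and can themselves give rise to neurons, glia and melanocytes. RNA of a cell body outside the dissected heart is not in these libraries, and in whole hearts fewer cells of a type and less RNA per cell cannot be told apart.

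The hearts were sequenced in lanes 3, 6 and 7, with 4, 4 and 2 WT hearts, 2, 2 and 1 Dp1Tyb hearts, and 1, 1 and 3 hearts labelled Dp1TybDyrk1a+/+/- in them. The depth of each library is unknown, because the values were normalized before they were deposited. All 10 cardiomyocyte markers examined passed the filter on low values. Dyrk1a itself had a mean log2 value of 11.37 in WT hearts, 11.69 in Dp1Tyb hearts and 11.76 in hearts labelled Dp1TybDyrk1a+/+/-. Its RNA was therefore not lower with the null allele, and the RNA level of the whole gene does not check that label. The study reports other evidence for this genotype. Its RNA sequencing showed that exons of one Dyrk1a allele were deleted in this strain, and DYRK1A protein was more abundant in Dp1Tyb hearts than in theirs. The values used here are per gene and do not show exons. Y-linked genes were lower in Dp1Tyb than in WT hearts (median log2 difference of -1.21, 0 of 4 genes called by limma and 4 at an unadjusted P under 0.05), and lower than in hearts labelled Dp1TybDyrk1a+/+/- (median of -1.43, 0 called and 4 at an unadjusted P under 0.05). The Y-linked gene Ddx3y had mean log2 values of 9.629 in WT, 8.169 in Dp1Tyb and 9.915 in hearts labelled Dp1TybDyrk1a+/+/-. It ran from 7.645 to 10.54, 7.405 to 10.47 and 7.694 to 10.53 in the same order. These ranges were nearly alike, but the mean of Dp1Tyb lay nearer the low end of its range. The means of WT and of hearts labelled Dp1TybDyrk1a+/+/- lay nearer the high end of theirs. The labels do not give the sex of the embryos, so a difference in the balance of the sexes cannot be fully told apart from genotype.

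All 8 genes are protein-coding. On GRCm39, Th (ENSMUSG00000000214) lies on chromosome 7 from 142443466 to 142484865 and Dbh (ENSMUSG00000000889) on chromosome 2 from 27055245 to 27074212. They encode tyrosine hydroxylase, which makes L-DOPA, and dopamine beta-hydroxylase, which turns dopamine into noradrenaline. Foxd3 (ENSMUSG00000067261), on chromosome 4 from 99544536 to 99546859, encodes a forkhead transcription factor of the early neural crest. The RefSeq promoter table, on GRCm38.p6, held 5 of the 8 genes (Th, Dbh, Prph, Tubb3 and Foxd3). The 250 bases before the start sites of Th, Dbh and Foxd3 are shown because each shares a short motif with another of them, which is in capitals. The promoters of Th and Dbh both hold CAATTAG, and those of Th and Foxd3 both hold the cyclic AMP response element TGACGTCA.

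Th: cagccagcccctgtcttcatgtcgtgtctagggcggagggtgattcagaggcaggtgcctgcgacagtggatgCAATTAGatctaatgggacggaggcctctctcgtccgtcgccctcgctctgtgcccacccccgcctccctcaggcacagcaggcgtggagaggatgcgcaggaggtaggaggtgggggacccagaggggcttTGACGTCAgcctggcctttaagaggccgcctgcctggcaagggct
Dbh: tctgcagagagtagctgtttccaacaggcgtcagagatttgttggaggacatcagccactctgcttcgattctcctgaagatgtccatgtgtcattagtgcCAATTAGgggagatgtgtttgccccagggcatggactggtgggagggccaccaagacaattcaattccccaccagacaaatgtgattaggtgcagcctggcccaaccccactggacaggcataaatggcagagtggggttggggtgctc
Foxd3: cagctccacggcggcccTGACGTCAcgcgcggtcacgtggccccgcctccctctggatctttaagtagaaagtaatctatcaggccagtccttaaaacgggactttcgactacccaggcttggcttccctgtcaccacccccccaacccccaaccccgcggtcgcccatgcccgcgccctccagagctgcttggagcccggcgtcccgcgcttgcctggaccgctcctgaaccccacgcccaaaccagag

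These promoters lie at chr7:142899996-142900245 on the minus strand, chr2:27165257-27165506 on the plus strand and chr4:99656049-99656298 on the plus strand of GRCm38.p6. The element TGACGTCA, which reads the same on both strands, begins 45 bases before the start site in Th (from -45 to -38) and far upstream in Foxd3 (from -233 to -226). CAATTAG lies from -177 to -171 in Th and from -149 to -143 in Dbh. Among 32851 mouse promoters of this length, 1.55% held TGACGTCA and 1.77% held CAATTAG on either strand. The promoter of Prph held a TATA box, TATAAA, from -31 to -26, which 12.4% of promoters held, and the E-box CAGCTG, in 13% of promoters, was in none of the 5. The motifs were chosen after the sequences had been seen, and a match is a description of these letters, not a binding site.

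Levels between the genes are compared as normalized counts per kilobase of the canonical transcript, averaged over the 20 hearts. Erbb3, the neuregulin receptor of Schwann cell precursors, had the highest level, with 81.2 counts per kilobase and a range over hearts from 71.96 to 88.73. Stmn2, a regulator of microtubules in growing axons, had 49.8 (range 38 to 66.65), and Tubb3, the neuronal beta-tubulin, had 36.3 (range 30.88 to 41.18). These ranges overlapped, but both genes were measured in the same hearts, and the ranges do not compare them within a heart. In each genotype the mean of Stmn2 was above that of Tubb3. It was 51.18 against 35.74 in WT, 50.71 against 39.16 in Dp1Tyb and 46.28 against 34.64 in hearts labelled Dp1TybDyrk1a+/+/-. Sox10, the transcription factor of neural crest glia, followed with 17.9, and Prph, the intermediate filament peripherin of peripheral axons, with 9.89. The lowest levels were those of Dbh with 5.93, Foxd3 with 2.38 and Th with 1.93 counts per kilobase. All other neighbours in this order had ranges that did not overlap, but the place of Th depends on its canonical transcript, which is longer than its other annotated transcripts.

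The 6 genes other than Th and Foxd3 passed the filter on low values, set at 10 normalized counts in the mean of the 20 hearts. Th, with a mean of 9.35 normalized counts per heart, and Foxd3, with 5.52, lay under it, and their values come from a fit of all 29322 genes that varied. The deposited values of weakly expressed genes lie close together. The median SD over hearts was 0.0148 on the log2 scale for genes with 1 to 10 normalized counts, and 0.0679 for those with 100 to 1000. Differences of Th, Foxd3, Dbh and Prph are therefore on a compressed scale. Stmn2 varied the most among the 8 genes, over a range of 0.811 on the log2 scale between its lowest and highest heart, against 0.111 for Th.

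The neuron gene Tubb3 and the glia gene Erbb3 showed the clearest differences between genotypes, but neither passed the test across all genes, and nor did any other member in any of the 3 comparisons. Tubb3 (ENSMUSG00000062380, chromosome 8, 124138163 to 124150092) had log2 values of 6.97, 7.04, 7.02, 7.01 and 6.80 in the 5 Dp1Tyb hearts, and of 6.85, 6.89, 6.80, 6.67 and 6.76 in those labelled Dp1TybDyrk1a+/+/-. In the 10 WT hearts it ranged from 6.63 to 6.93 with a median of 6.86. Hence 4 of the 5 Dp1Tyb hearts lay above every WT heart and every heart labelled Dp1TybDyrk1a+/+/-, while Dp1Tyb replicate 5 lay among them. The mean of Tubb3 in Dp1Tyb hearts was 0.13 ± 0.048 (SE) above WT on the log2 scale, a 1.096-fold difference (95% confidence interval 1.02 to 1.17). The adjusted P in limma was 0.156, and the exact two-sided permutation test over hearts gave P = 0.0236, unadjusted. With the level of Y-linked genes in the model the difference from WT was 0.12, with a limma adjusted P of 0.407.

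Against the hearts labelled Dp1TybDyrk1a+/+/-, Tubb3 was 0.18 ± 0.055 (SE) higher in Dp1Tyb on the log2 scale, or 1.13-fold (95% confidence interval 1.04 to 1.22). Its adjusted P in limma was 0.104, with an exact permutation P of 0.0238. When the model was refitted under 11 other settings, the Y-linked level among them, this difference ran from 0.106 to 0.218. The limma adjusted P values ran from 0.0104 to 0.388. Within lanes 3, 6 and 7 the difference was 0.074, 0.26 and 0.18, and against WT it was 0.064, 0.16 and 0.21. The hearts labelled Dp1TybDyrk1a+/+/- did not differ detectably from WT (log2 difference of -0.044, 95% confidence interval -0.14 to 0.054, limma adjusted P = 0.777).

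**Figure D1:**
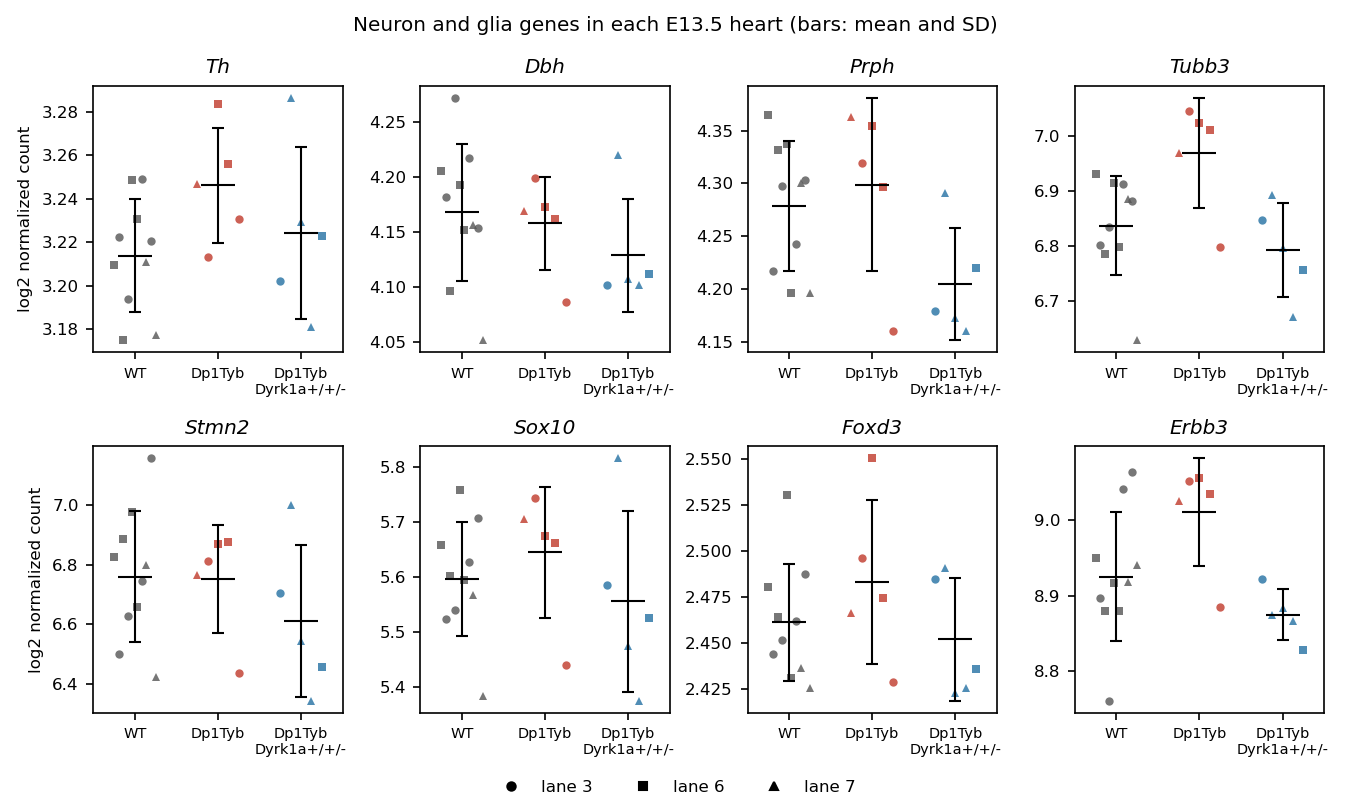
Log2 normalized count (vertical axis, a separate scale for each gene) of the 8 genes in each heart of the 3 genotypes. Points are hearts, with their shape giving the lane, and black bars are the mean and SD (n = 10 WT, 5 Dp1Tyb, 5 Dp1TybDyrk1a+/+/-). For Prph, Tubb3 and Erbb3, 4 of the 5 Dp1Tyb hearts lie above all 5 hearts labelled Dp1TybDyrk1a+/+/-, and for all 8 genes the groups overlap.

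Erbb3 (ENSMUSG00000018166, chromosome 10, 128403392 to 128425811) is made by glia, and is also known from the mesenchyme of the heart cushions, so that in whole hearts it is not a marker of glia alone. Its log2 values were 9.02, 9.05, 9.06, 9.03 and 8.88 in Dp1Tyb hearts and 8.92, 8.87, 8.88, 8.87 and 8.83 in those labelled Dp1TybDyrk1a+/+/-, and ran in WT from 8.76 to 9.06 with a median of 8.92. As for Tubb3, 4 of the 5 Dp1Tyb hearts were above every heart labelled Dp1TybDyrk1a+/+/-, and replicate 5 was not, but none was above the highest WT heart. The difference between Dp1Tyb hearts and those labelled Dp1TybDyrk1a+/+/- was 0.14 ± 0.045 (SE) on the log2 scale, with a limma adjusted P of 0.121 and an exact permutation P of 0.0159. Against WT it was 0.085 ± 0.039 (SE), with a limma adjusted P of 0.289 and an exact permutation P of 0.0756. With the level of Y-linked genes in the model these differences were 0.0931 and 0.0498, with limma adjusted P values of 0.529 and 0.756.

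The other 2 glia genes were closer to no difference. The log2 values of Sox10 (ENSMUSG00000033006, chromosome 15, 79039108 to 79049469) were 5.71, 5.74, 5.67, 5.66 and 5.44 in Dp1Tyb and 5.59, 5.82, 5.48, 5.38 and 5.53 in hearts labelled Dp1TybDyrk1a+/+/-. In WT they ran from 5.38 to 5.76 with a median of 5.60. The lowest and the highest heart of the 20 were thus both labelled Dp1TybDyrk1a+/+/-, and all 3 groups overlapped. The difference of Sox10 between Dp1Tyb and WT was 0.049 ± 0.063 (SE) on the log2 scale, with a limma adjusted P of 0.782 and a 95% confidence interval from -0.082 to 0.18. Foxd3 ranged over only 0.128 on the log2 scale in all hearts, and its differences were 0.022 between Dp1Tyb and WT and -0.0093 between hearts labelled Dp1TybDyrk1a+/+/- and WT, with limma adjusted P values of 0.802 and 0.906 over the genes that varied.

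Among the neuron genes, Th and Dbh differed little. Th had log2 values of 3.247, 3.213, 3.284, 3.256 and 3.231 in Dp1Tyb hearts and of 3.202, 3.286, 3.229, 3.181 and 3.223 in hearts labelled Dp1TybDyrk1a+/+/-, and ran from 3.175 to 3.249 in WT with a median of 3.216. There were 2 Dp1Tyb hearts above every WT heart, and the groups overlapped. The difference of 0.032 between Dp1Tyb and WT on this compressed scale had an exact permutation P of 0.0436, and a limma adjusted P of 0.542. Dbh differed by -0.0099 ± 0.029 (SE) between Dp1Tyb and WT, with a limma adjusted P of 0.914, and by -0.039 ± 0.029 (SE) between hearts labelled Dp1TybDyrk1a+/+/- and WT, with an adjusted P of 0.679. Exons of Th, Dbh and Foxd3 overlap those of antisense transcripts (103 bases of Th with Gm73894, 311 bases of Dbh with Dbhos, and 163 and 92 bases of Foxd3 with Foxd3os and Gm12688), and the strand setting of the counting is not given in the sources used here.

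Prph (ENSMUSG00000023484, chromosome 15, 98952872 to 98956862) was low in hearts labelled Dp1TybDyrk1a+/+/-. Its log2 values there were 4.18, 4.29, 4.17, 4.16 and 4.22, against a range from 4.20 to 4.36 in WT with a median of 4.30. Of these hearts 3 lay below every WT heart. In Dp1Tyb the values were 4.36, 4.32, 4.35, 4.30 and 4.16, with replicate 5 again the lowest. The other 4 lay above every heart labelled Dp1TybDyrk1a+/+/-, and replicate 5 lay below them all. The log2 difference between hearts labelled Dp1TybDyrk1a+/+/- and WT was -0.074 ± 0.033 (SE), with a limma adjusted P of 0.481 and an exact permutation P of 0.039. Between Dp1Tyb and the hearts labelled Dp1TybDyrk1a+/+/- it was 0.094 ± 0.038 (SE), with a limma adjusted P of 0.198 and an exact permutation P of 0.0794.

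Stmn2 (ENSMUSG00000027500, chromosome 3, 8574151 to 8626667) had log2 values of 6.77, 6.81, 6.87, 6.88 and 6.44 in Dp1Tyb and of 6.71, 7.001, 6.54, 6.34 and 6.46 in hearts labelled Dp1TybDyrk1a+/+/-. In WT it ran from 6.42 to 7.16 with a median of 6.77. All 3 groups overlapped, and the spread within a genotype was larger than the differences between them. Hearts labelled Dp1TybDyrk1a+/+/- were -0.15 ± 0.11 (SE) from WT on the log2 scale, with a limma adjusted P of 0.682. Dp1Tyb hearts were -0.0071 ± 0.11 (SE) from WT, with a 95% confidence interval from -0.24 to 0.22, which spans fold changes from 0.849 to 1.17.

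**Figure D2:**
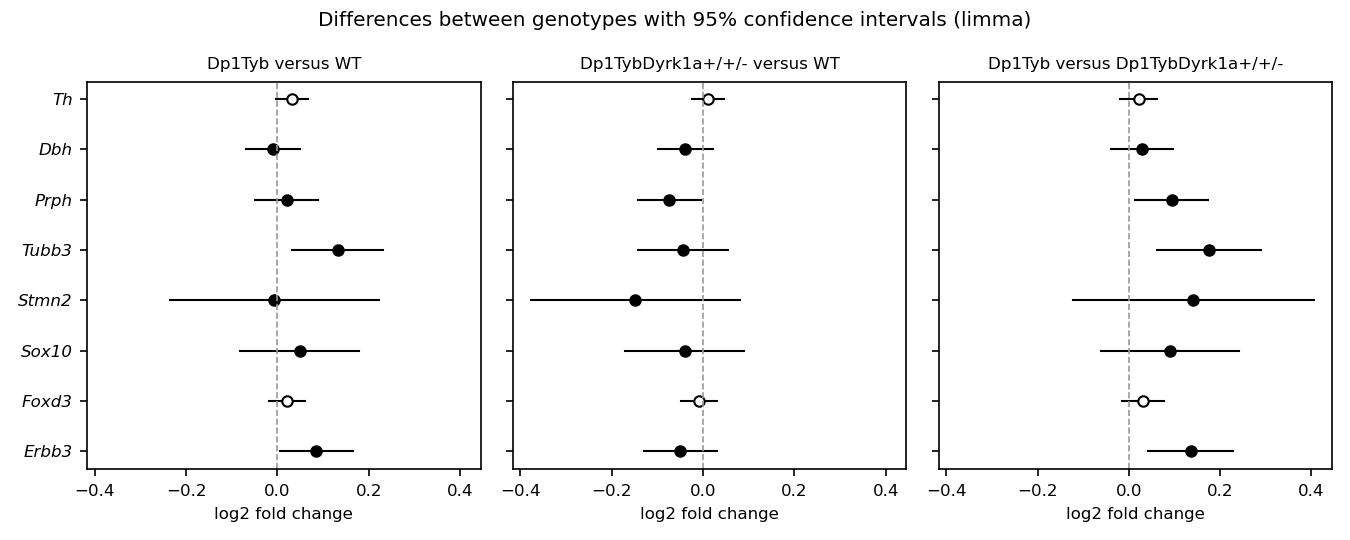
Log2 fold change (horizontal axis) of each gene in the 3 comparisons, with 95% confidence intervals from limma. Filled points are the 6 genes tested, and open points are Th and Foxd3, taken from the fit without a filter. All 8 points lie above 0 for Dp1Tyb versus Dp1TybDyrk1a+/+/-, where the intervals of Prph, Tubb3 and Erbb3 leave out 0, but no gene passed an adjusted P of 0.05.

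Counted over the comparisons, limma called 0 of the 6 members tested between Dp1Tyb and WT, where it called 3.08% of all 15304 genes tested. Between hearts labelled Dp1TybDyrk1a+/+/- and WT it called 0 of 6, against 0.712% of all genes, and between Dp1Tyb and hearts labelled Dp1TybDyrk1a+/+/- 0 of 6, against 1.16%. With such shares, no call among 6 genes is close to the background. At an unadjusted limma P under 0.05 the counts were 2 of 6 (Tubb3 and Erbb3), 1 of 6 (Prph) and 3 of 6 (Prph, Tubb3 and Erbb3), against 15.6%, 9.64% and 18.5% of all genes. The exact permutation test gave an unadjusted P under 0.05 for 2 of the 8 genes in the first comparison (Th and Tubb3), 1 in the second (Prph) and 2 in the third (Tubb3 and Erbb3), against 19.5%, 8.69% and 17.1% of the genes tested. These 8 genes include Th and Foxd3, which lay under the filter, while the shares are of genes that passed it. With that limit, the counts of the permutation test are close to the background. The limma counts of 2 of 6 and 3 of 6 lie above the shares of all genes, but the genes are few and covary, and whether these counts exceed the background was not tested. In none of the comparisons did the groups of a member fail to overlap, as they did for 2.63%, 0.64% and 5.65% of all genes.

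The sign of the differences was shared by most of the 8 genes. In Dp1Tyb against WT 6 were above 0 and 2 (Dbh and Stmn2) below it. In hearts labelled Dp1TybDyrk1a+/+/- against WT 1 (Th) was above and 7 were below, and in Dp1Tyb against those hearts all 8 were above. The comparisons share hearts, and the 8 genes covary from heart to heart, so these counts are not independent of each other. The median over the 6 genes tested was 0.035, -0.047 and 0.11 on the log2 scale in the same order, beside -0.0019, -0.0030 and 0.0028 over all genes tested.

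The calls turned on the weighting of hearts. With a weight for each heart, which limma estimates from how well that heart follows the model, Tubb3 was called between Dp1Tyb and WT (adjusted P = 0.0456), and Prph, Tubb3 and Erbb3 were called between Dp1Tyb and hearts labelled Dp1TybDyrk1a+/+/- (adjusted P of 0.0263, 0.0104 and 0.031). Between hearts labelled Dp1TybDyrk1a+/+/- and WT 0 members were called with these weights. The weighted fit called 9.29% of all genes between Dp1Tyb and WT, 2.23% between hearts labelled Dp1TybDyrk1a+/+/- and WT, and 8.15% between the mutants. Without Dp1Tyb replicate 5 the difference of Tubb3 from WT was 0.175 with a limma adjusted P of 0.0514. Over the 20 fits that each left out 1 heart, limma called 0 members.

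The wider sets of neuron genes were 26 noradrenergic and autonomic neuron genes and 26 pan-neuronal genes, none of them members. Of the first, 18 passed the filter. Ache, which encodes acetylcholinesterase, rose and Ddc, which encodes the enzyme that turns L-DOPA into dopamine, fell in Dp1Tyb hearts, while the other 16 were not called. This is 1 of 18 higher and 1 of 18 lower, against 1.81% and 1.27% of all genes. The log2 values of Ache (chromosome 5, 137285781 to 137292728) were 7.992, 7.985, 7.979, 7.92 and 7.991 in Dp1Tyb and ran from 7.643 to 7.763 in WT with a median of 7.692. All 5 Dp1Tyb hearts lay above every WT heart. The difference was 0.28 ± 0.030 (SE), with a limma adjusted P of 3.41e-06. Averaged over all hearts, Ache had 92.46 counts per kilobase. Among genes of this list that serve the making and storage of acetylcholine, Chat had 0.1506 and Slc18a3 had 2.044. Both lay under the filter, while Slc5a7 had 13.48 and passed it. Which cells of the heart made the Ache RNA was not tested, so its rise cannot be assigned to autonomic neurons.

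In hearts labelled Dp1TybDyrk1a+/+/- the log2 values of Ache were 7.816, 7.754, 7.903, 7.942 and 7.785, of which 4 lay above every WT heart. Ache thus rose there also, as 1 of 18 genes higher against 0.627% of all genes, by 0.15 ± 0.030 (SE) with a limma adjusted P of 0.0166. This call was lost with lane in the model (adjusted P = 0.0524), with only the 2 genotypes in the fit (0.0577), and without replicate 3 or replicate 4 of that genotype. Its difference between Dp1Tyb and those hearts was 0.13 ± 0.035 (SE), with a limma adjusted P of 0.0605, so that neither a smaller nor an equal rise was shown.

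Ddc is also made outside neurons in the developing heart, and at a mean log2 value of 10.14 it stood far above Th and Dbh. Its log2 values were 9.981, 9.891, 9.907, 9.954 and 9.893 in Dp1Tyb hearts and 10.14, 9.883, 10.341, 10.28 and 10.327 in hearts labelled Dp1TybDyrk1a+/+/-, and ran from 10.09 to 10.423 in WT with a median of 10.18. Every Dp1Tyb heart lay below every WT heart. The difference was -0.29 ± 0.062 (SE) on the log2 scale, with a limma adjusted P of 0.0109. With the level of Y-linked genes in the model it was -0.247, with an adjusted P of 0.0853. Ddc differed by -0.27 ± 0.071 (SE) between Dp1Tyb and hearts labelled Dp1TybDyrk1a+/+/-, with a limma adjusted P of 0.0608, and by -0.019 ± 0.062 (SE) between those hearts and WT, with an adjusted P of 0.935. Hand2 and Gata2, transcription factors of sympathetic neurons that heart and vessel cells also use, had the highest levels among the genes not called, and Hand2 differed by 0.026 ± 0.054 (SE) and Gata2 by -0.053 ± 0.024 (SE) between Dp1Tyb and WT.

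Of the 26 pan-neuronal genes, which serve the cytoskeleton, synapses and axons of all neurons, 23 passed the filter and 0 were called by limma against WT in either mutant. At an unadjusted P under 0.05 the counts were 1 for Dp1Tyb and 3 for hearts labelled Dp1TybDyrk1a+/+/-, against 15.6% and 9.64% of all genes. With weights per heart 0 and 3 were called, against 9.29% and 2.23%. The only call was that of Stmn4, a relative of Stmn2, which was lower in Dp1Tyb than in hearts labelled Dp1TybDyrk1a+/+/-, as 1 of 23 lower against 0.738% of all genes, with 0 of 23 higher against 0.425%. Its log2 values were 7.42, 7.613, 7.502, 7.454 and 7.454 in Dp1Tyb and 7.708, 7.636, 7.743, 7.717 and 7.634 in hearts labelled Dp1TybDyrk1a+/+/-, with no overlap. The difference was -0.20 ± 0.048 (SE) with a limma adjusted P of 0.046, while that of Stmn2 was 0.14, and was called in only 5 of the 20 fits that left out 1 heart. It was not called without a filter, with lane, the Y-linked level or the foregut level in the model, or with only the 2 genotypes in the fit (adjusted P from 0.0783 to 0.191). The call was lost without any 1 of WT replicates 1, 2, 3, 4, 5, 7 and 9, Dp1Tyb replicates 1, 3, 4 and 5, and Dp1TybDyrk1a+/+/- replicates 1, 3, 4 and 5.

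No gene of the glia set was called. Of 24 Schwann cell precursor and glia genes 17 passed the filter, and limma called 0 in each comparison, with 3, 2 and 4 at an unadjusted P under 0.05, against 15.6%, 9.64% and 18.5% of all genes. With weights per heart 3, 0 and 5 were called, against 9.29%, 2.23% and 8.15%. Ednrb, the endothelin receptor of migrating crest cells, had the highest level and differed by -0.0060 ± 0.037 (SE) on the log2 scale between Dp1Tyb and WT, and Pmp22, a myelin protein that mesenchyme also makes, by 0.010 ± 0.054 (SE). The median of the set was 0.031 between Dp1Tyb and WT, beside -0.0019 over all genes.

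Among 25 neuregulin, neurotrophin and guidance genes, which encode signals to nerves and glia and their receptors, 23 passed the filter. Kit, the receptor of melanoblasts that other cells of the heart use as well, fell in both mutants, as 1 of 23 genes lower against 1.27% and 0.0849% of all genes. Its log2 values were 9.148, 9.013, 9.055, 9.074 and 8.971 in Dp1Tyb, 9.025, 9.142, 9.086, 9.082 and 9.084 in hearts labelled Dp1TybDyrk1a+/+/-, and from 9.117 to 9.295 in WT with a median of 9.224. In each mutant 4 of 5 hearts lay below every WT heart. The difference from WT was -0.16 ± 0.029 (SE) in Dp1Tyb (limma adjusted P = 0.00213) and -0.13 ± 0.029 (SE) in hearts labelled Dp1TybDyrk1a+/+/- (limma adjusted P = 0.0293), and both use the same WT hearts. The second call was lost with quantile normalization (adjusted P = 0.0508), with each heart centred on its median (0.0642) and with the foregut level in the model (0.0589), and was made in only 9 of the 20 fits that left out 1 heart. It was lost without any 1 of WT replicates 1, 2, 3, 4, 5, 8 and 9 and Dp1TybDyrk1a+/+/- replicates 1, 3, 4 and 5. Erbb2, the partner of Erbb3 in neuregulin signalling and a receptor of cardiomyocytes, differed by 0.029 ± 0.044 (SE) between Dp1Tyb and WT, and Nrp1, a receptor of semaphorins, by 0.014 ± 0.026 (SE).

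**Figure D3:**
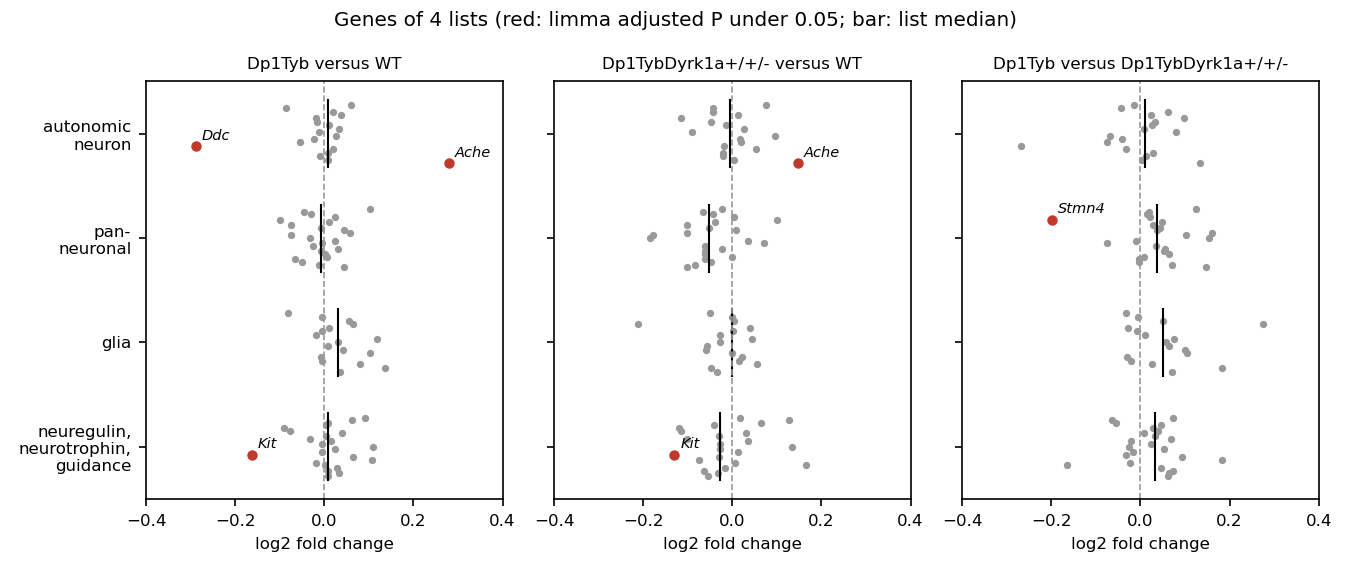
Log2 fold change (horizontal axis) of the tested genes of 4 lists in the 3 comparisons. Each point is a gene, red where limma gave an adjusted P under 0.05, and black bars are list medians. The called genes are Ache, Ddc and Kit against WT and Stmn4 between the mutants. Genes in grey were not called, though some lie as far from 0, such as Sox2 at 0.276 and Ddc at -0.269 between the mutants.

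Most pairs of the 8 genes rose and fell together from heart to heart within genotypes. To describe this, each heart's deviation from the mean of its genotype was taken, and Pearson's r was computed over the 20 hearts for each of the 28 pairs of genes. The values ran from 0.007 to 0.90 with a median of 0.557, and 19 pairs had a Benjamini-Hochberg adjusted permutation P under 0.05. Passing did not make a pair rare among all genes. For Th and Foxd3, which passed, 11.3% of the genes tested had at least the same r with Th and 7.77% with Foxd3. For Stmn2 and Sox10 these shares were 0.503% and 0.595%. The closest pair joined a neuron gene and a glia gene, Stmn2 and Sox10, with r = 0.90 and Spearman's rho = 0.851 (both with a permutation P of 1e-05, the smallest that 100000 permutations can give, adjusted to 0.00014 and 9.33e-05 over the 28 pairs). Without the 2 hearts farthest from the median of Stmn2 r was 0.886. Tubb3 and Sox10 followed with r = 0.859 and rho = 0.836 (permutation P of 1e-05 for r and rho, adjusted to 0.00014 and 9.33e-05). Without the 2 hearts farthest from the median of Tubb3 their r was 0.771. For each pair these hearts were chosen by 1 of its genes only.

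The pairs of Erbb3 had the lower values. Its 7 pairs had a median r of 0.412, from 0.007 with Dbh to 0.511 with Stmn2, and 1 of them, that with Stmn2, passed by r. By Spearman's rho 4 passed, with Tubb3 (0.576), Sox10 (0.531), Foxd3 (0.484) and Stmn2 (0.483), at adjusted permutation P values from 0.0193 to 0.0458. In these pairs the 2 farthest hearts were chosen by the other gene and not by Erbb3. Without them r with Dbh was 0.459 and r with Sox10 0.574 (permutation P of 0.0555 and 0.0136), while r with Stmn2 was 0.428 (permutation P of 0.076). Among the 21 pairs of the other 7 genes the median r was 0.69, and 18 passed. Th and Dbh, the enzymes of noradrenaline synthesis, had r = 0.529 with rho = 0.511 (permutation P = 0.0166, adjusted P = 0.0291 and rho P = 0.0236, adjusted 0.039). Without the 2 hearts farthest from the median of Th r was 0.398 with a permutation P of 0.104, and the relation was no longer past the threshold. For the 5 relations of Th that passed (with Dbh, Tubb3, Stmn2, Sox10 and Foxd3), r without the 2 farthest hearts ran from 0.282 to 0.461, with permutation P values from 0.0541 to 0.255. With lane taken out as well as genotype, the median r over the 28 pairs was 0.594.

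The hearts at the low end of this shared variation were WT replicate 10, Dp1Tyb replicate 5 and Dp1TybDyrk1a+/+/- replicate 4, with mean scaled deviations over the 7 genes other than Erbb3 of -1.72, -1.61 and -1.14 SD. At the high end were Dp1TybDyrk1a+/+/- replicate 2 with 1.72 SD and WT replicate 5 with 1.17 SD. These deviations were taken from the mean of each genotype, so every genotype must hold hearts below and above its own mean. Finding low and high hearts in several genotypes therefore follows from this scale, and does not compare the genotypes. Dp1Tyb replicate 5, which overlapped the other groups for Tubb3 and Erbb3, was among the low hearts.

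**Figure D4:**
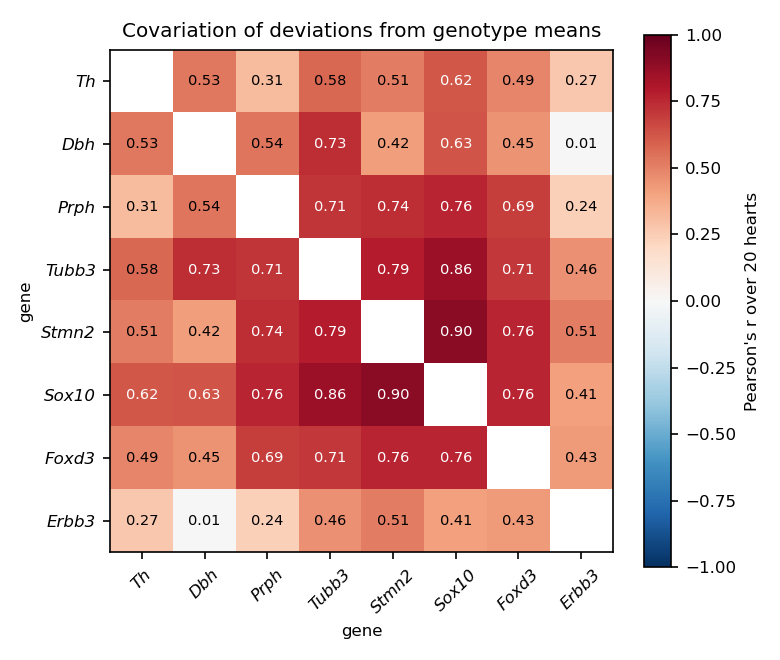
Pearson's r between the deviations of each pair of the 8 genes from their genotype means over 20 hearts, on a colour scale from -1 to 1. Stmn2, Sox10 and Tubb3 form the darkest block, with r from 0.787 to 0.90, and most cells in the row of Erbb3 are pale.

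Many genes outside these lists covaried with the members. Sox10 had r of at least 0.7 with 806 of the 15304 genes tested (5.27%), Stmn2 with 754 and Tubb3 with 428, but Prph with 155, Th with 111, Erbb3 with 30 and Dbh with 25. The genes most like each member over the 20 hearts, given as a description with no P, included genes of nerves and genes of connective tissue. Most like Dbh was Chrna3, a nicotinic receptor subunit of autonomic ganglia, with r = 0.823. Most like Sox10 was Scn3b, a sodium channel subunit, with r = 0.968, followed by Prrx1, a transcription factor of mesenchyme, with 0.960. Prph was most like Col14a1, a collagen, with 0.879, and L1cam, an adhesion molecule of axons, with 0.866. Tubb3 was most like Col26a1 with 0.942 and the neurturin receptor Gfra2 with 0.938. Most like Stmn2 was the chromatin remodeller gene Chd3 with 0.963, and most like Erbb3 the histone gene H3f3b with 0.838.

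Among the wider sets, pan-neuronal genes had the highest median r with Sox10, Stmn2 and Tubb3. The median r of the 23 pan-neuronal genes was 0.748 with Sox10, 0.724 with Stmn2 and 0.704 with Tubb3, and that of the 18 autonomic genes was 0.38, 0.371 and 0.385. The median over all genes tested lay between -0.034 and 0.004 for each of the 8 members. With Erbb3 the 17 glia genes had a median r of only 0.264. These medians were not tested.

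Markers of tissue next to the heart moved with the same genes. Of 7 markers of foregut and lung epithelium (Epcam, Nkx2-1, Foxa2, Shh, Sftpc, Cldn6 and Krt8) 6 passed the filter and none was at 0. Their summed normalized count ran from 352.1 to 642.3 in WT hearts, with a median of 429.4, from 396.5 to 513 in Dp1Tyb (median 488) and from 371.8 to 476.5 in hearts labelled Dp1TybDyrk1a+/+/- (median 377.9). The Dp1Tyb mean was 0.227 above that of hearts labelled Dp1TybDyrk1a+/+/- on the log2 scale, with an exact permutation P of 0.0556. Its sum followed Stmn2 over the 20 hearts with r = 0.908 and rho = 0.919 (permutation P = 1e-05 for both, adjusted P = 0.000267 and 0.0002 over 80 relations), and r = 0.92 without the 2 farthest hearts. For Sox10 r was 0.792 and rho 0.911 (permutation P of 3e-05 and 1e-05, adjusted to 0.0006 and 0.0002), and for Tubb3 0.676 and 0.747 (permutation P of 0.00121 and 0.00028, adjusted to 0.00745 and 0.0028). For Erbb3 r was 0.649 and rho 0.606 (permutation P of 0.00301 and 0.00574, adjusted to 0.0134 and 0.0233). Without the 2 farthest hearts r was 0.891, 0.771 and 0.634 for Sox10, Tubb3 and Erbb3. Dbh and Th had the smallest values, with r of 0.329 and 0.408 and rho of 0.38 and 0.409 (permutation P of 0.154 and 0.0721 for r, adjusted to 0.322 and 0.17).

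The relation did not come from a single marker. Across the 6 markers that passed the filter, r with Stmn2 ran from 0.788 for Krt8 to 0.94 for Foxa2, a transcription factor of endoderm, and r with Sox10 from 0.597 for Krt8 to 0.939 for Foxa2. Krt8 had the highest level, with a mean log2 value of 7.82 against 6.37 for Epcam and 4.48 for Shh. The foregut sum, a sum of counts, therefore weighs Krt8 the most, though its own r with these genes was the lowest. With the foregut sum in the model, an alternative chosen after seeing the data, the difference of Tubb3 between Dp1Tyb hearts and those labelled Dp1TybDyrk1a+/+/- was 0.106 in place of 0.176, and that of Erbb3 0.0811 in place of 0.135, with limma adjusted P values of 0.216 and 0.255. The difference of Stmn2 turned from 0.14 to -0.0875 and that of Sox10 from 0.090 to -0.0232. Among the 28 pairs, 7 instead of 19 passed once the foregut sum was taken out, and the median r was 0.449 instead of 0.557. Stmn2 and Sox10 still had r = 0.707 (permutation P = 0.00053).

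**Figure D5:**
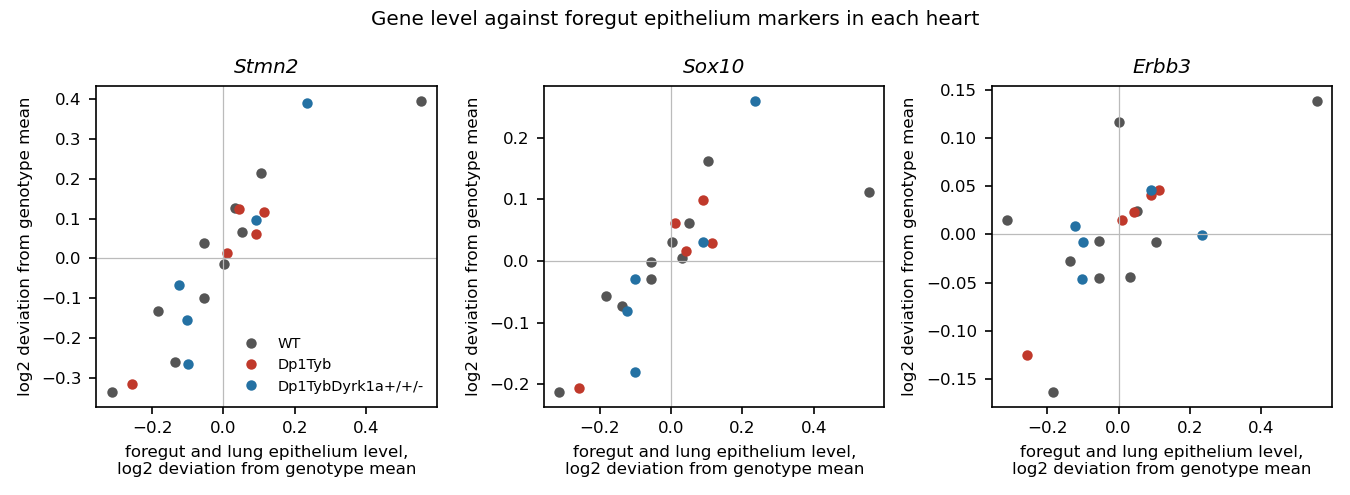
Deviation of Stmn2, Sox10 and Erbb3 from their genotype means (vertical axes, log2) against that of the summed foregut and lung epithelium markers (horizontal axes, log2) in the 20 hearts, coloured by genotype. Stmn2 rises with the markers across all genotypes (r = 0.908), and the WT heart far to the right is replicate 9.

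Markers of cell types of the heart also moved with some of the members. The sum of 8 cushion mesenchyme and fibroblast markers followed Sox10 with r = 0.859 and rho = 0.871 and Stmn2 with r = 0.856 and rho = 0.851 (permutation P between 1e-05 and 2e-05, adjusted P between 0.0002 and 0.00032, r of 0.784 and 0.816 without the 2 farthest hearts). Erbb3 had the lowest r of the 8 genes with this sum, 0.322, with rho = 0.42 (permutation P of 0.165 and 0.0671, adjusted to 0.323 and 0.196). For Th r was 0.463 (permutation P = 0.0389, adjusted to 0.107), and neither gene passed. The sum of the 10 cardiomyocyte markers ran against Tubb3 with r = -0.724 and rho = -0.602 (permutation P of 0.00025 and 0.00583, adjusted to 0.00286 and 0.0233, and r = -0.613 without the 2 farthest hearts). All 8 mesenchyme markers were tested and none was at 0. Their sum was 78820 to 110900 in WT, 99210 to 114100 in Dp1Tyb and 82520 to 115500 in hearts labelled Dp1TybDyrk1a+/+/-. The mean log2 sum in Dp1Tyb was 0.138 above WT (exact permutation P = 0.0912) and 0.171 above hearts labelled Dp1TybDyrk1a+/+/- (exact permutation P = 0.103), and all 8 markers were above 0 in both comparisons. Between Dp1Tyb and hearts labelled Dp1TybDyrk1a+/+/- the sum of the cardiomyocyte markers differed by -0.126 (exact permutation P = 0.0238) and that of the melanoblast markers by -0.0822 (exact permutation P = 0.0476), each unadjusted over the 10 lists of cell type markers. The sum of the melanoblast markers, of which 4 of 8 passed the filter, ran against Erbb3 with r = -0.621 and rho = -0.714 (permutation P of 0.00289 and 0.00053, adjusted to 0.0134 and 0.00424, and r = -0.624 without the 2 farthest hearts). Mitf, with a mean log2 value of 10.23 against 6.24 for Dct, the next highest, made up most of this sum. Its own difference between the mutants was -0.0855 (limma adjusted P = 0.29), so the melanoblast values mainly follow Mitf. None of the 5 thymus markers passed the filter, and of 5 adrenal cortex markers 2 did and Cyp11b1 was at 0 in every heart. How far these cell types account for the values of the 8 genes was not tested beyond the fit with the foregut sum.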

How the data were processed

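The submitters' processing notes name Trimmomatic 0.36, STAR 2.5.2a, RSEM 1.2.31, DESeq2 and the build GRCm38, with no role or order. The deposited table holds log2-transformed normalized counts of 48795 genes in 20 hearts. The transformation and the strand setting are not given in the sources used here. The depth of the libraries is unknown, since read totals were not used here, and precision rests on the spread between hearts.

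Genes were named with GENCODE M39, whose GRCm39 coordinates are printed. Promoters came from RefSeq on GRCm38.p6. The 15304 genes whose normalized counts averaged 10 or more entered a linear model in limma 3.58.1 (R 4.3.3) that held all hearts and a mean for each genotype, with an intensity trend in the empirical Bayes step. Calls were made at a Benjamini-Hochberg adjusted P under 0.05. The test suits log2 values, where the authors used DESeq2. Single genes also had an exact two-sided permutation test over hearts (3003 regroupings of 5 against 10, smallest P 0.000333, and 252 of 5 against 5, smallest P 0.00794). Correlations used 100000 permutations.

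The fit was tested on simulated data. The members were chosen for their roles and not for their values, but earlier results of these data were known when the members, lists, tests and alternatives were chosen. Named genes were the members, each list gene past the threshold and the 2 with the highest levels per list not past it. Replicates are separate hearts numbered in order of the labels, which give no litters. No 2 hearts held identical values.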

Additional observations from a re-analysis of the deposited data

Results flagged for a closer look

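In 60 groups of values (20 named genes in 3 genotypes), 14 values lay far from the others of their group by Dixon's test, where chance gives about 1 in 20 groups. Several of these values came from the same heart. The groups of different genes share hearts and are not independent, so the count cannot be set directly against that rate. Among the members, Dp1Tyb replicate 5 was the low heart for Stmn2 with a log2 value of 6.437, for Sox10 with 5.44 and for Erbb3 with 8.885. WT replicate 10 was the low heart for Tubb3 with 6.63. For Dbh, Dp1TybDyrk1a+/+/- replicate 2 was the high heart with 4.22. The same heart was the high one for Ncam1 with 12.07, Ednrb with 12.04 and Pmp22 with 10.23, and the low one for Tubb2b with 11.26. WT replicate 6 was the high heart for Hand2 with 11.18, Ednrb with 12.01 and Pmp22 with 10.08, and the low one for Nrp1 with 11.82. Dp1Tyb replicate 4 was low for Ache with 7.92, though still above every WT heart. Why these hearts lay apart was not tested.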

How the results depend on the processing

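The 8 genes, the called list genes and the counts were refitted under 11 other settings and 20 fits that each left out 1 heart. Of 489 counts, 426 stayed within 1.5 times the main count, and of 921 values of single genes 852 kept their direction and side of the threshold, 39 lost a call, 13 gained one and 17 turned in sign. With weights per heart, limma called 1 member between Dp1Tyb and WT and 3 between Dp1Tyb and Dp1TybDyrk1a+/+/-, where the main fit called 0. In those comparisons it called 3 and 5 glia genes in place of 0, 2 and 1 guidance genes in place of 1 and 0, 6 pan-neuronal genes in place of 1 and 1 autonomic gene in place of 0 (the last 2 for Dp1Tyb versus Dp1TybDyrk1a+/+/-), and 3 pan-neuronal genes in place of 0 for Dp1TybDyrk1a+/+/- versus WT. For Dp1Tyb versus WT, the Y-linked level as a covariate left 1 autonomic gene in place of 2, the foregut level gave 2 pan-neuronal genes and the fit of only the 2 genotypes 1 glia gene, in place of 0. For Dp1TybDyrk1a+/+/- versus WT, the autonomic count fell from 1 to 0 with lane or only the 2 genotypes, and the guidance count from 1 to 0 with quantile normalization, centring or the foregut level. For Dp1Tyb versus Dp1TybDyrk1a+/+/-, autonomic counts were 2 with a minimum of 100 and 1 with centring, without trend or with the foregut level, in place of 0. The pan-neuronal count there fell from 1 to 0 without a filter, with lane, Y-linked or foregut level, or only the 2 genotypes. Pairs of members past the threshold fell from 19 to 7 with the foregut level, which was chosen after seeing the data.

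Over the fits that left out 1 heart, the glia count ran from 0 to 2 (Dp1Tyb versus WT) and 0 to 1 (Dp1Tyb versus Dp1TybDyrk1a+/+/-), and the autonomic and guidance counts (Dp1TybDyrk1a+/+/- versus WT) and the autonomic and pan-neuronal counts (Dp1Tyb versus Dp1TybDyrk1a+/+/-) each from 0 to 1. Glia genes were called without WT replicate 2, Dp1Tyb replicate 5 or Dp1TybDyrk1a+/+/- replicate 2 (first comparison) and without Dp1Tyb replicate 5 or WT replicate 6 (last). The last autonomic call came without WT replicate 6 or Dp1TybDyrk1a+/+/- replicate 2 or 4. Values near 0 turned in sign. For Dp1Tyb versus WT, Dbh ran from -0.0228 to 0.00791 over the fits that left out 1 heart, above 0 without WT replicate 4 or Dp1Tyb replicate 5, and Stmn2 from -0.0444 to 0.0718, above 0 without WT replicate 1, 3, 5 or 9 or Dp1Tyb replicate 5. Stmn2 was 0.00951 with weights, and Prph was -0.00242 and Sox10 -0.0088 with the foregut level. For Dp1TybDyrk1a+/+/- versus WT, Sox10 was 0.0144 with the foregut level and ran from -0.106 to 0.00442, above 0 only without replicate 4 of that genotype. Ddc was 0.0508 with weights and ran from -0.056 to 0.0584, above 0 without WT replicate 3 or Dp1TybDyrk1a+/+/- replicate 2. For Dp1Tyb versus Dp1TybDyrk1a+/+/-, Stmn2 was -0.0875 and Sox10 -0.0232 with the foregut level. The cause was not tested. Over all genes, the calls were 471 between Dp1Tyb and WT (first), 109 between Dp1TybDyrk1a+/+/- and WT, and 178 between the mutants (last), but 1422, 341 and 1247 with weights. They were 214 and 9 for the first and last with the Y-linked level, and 779 and 3 with only the 2 genotypes. For the last they were 29 with lane, 76 without a filter and 273 with a minimum of 100, and centring changed its split from 65 higher and 113 lower to 48 and 177. Without 1 heart they ran from 266 to 959 (first) and 30 to 404 (last). No paired analysis was possible because the labels give the groups no shared replicate numbers and no litters, and do not divide the WT hearts between the strains. The unknown depth and the compressed scale at low counts limit what can be said of Th, Foxd3, Dbh and Prph.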
